A study of Mus musculus with 2 samples.

Results

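Laminins are the trimers of 1 alpha, 1 beta and 1 gamma chain that make up the first sheet of a basement membrane, and integrins are the receptors, each a pair of 1 alpha and 1 beta subunit, by which cells hold on to laminins and other matrix proteins. The genes described here were all protein-coding mouse genes of the deposited tables with a laminin alpha, beta or gamma symbol, or with an integrin alpha or beta symbol. The symbols were taken from GENCODE M21, and the rule used no measured value. It gave 37 of 43346 genes, of which 36 are described here: 10 encode laminin chains, 18 integrin alpha subunits and 8 integrin beta subunits. All 36 had a row in both libraries. A mean level of at least 1 TPM (a read count divided by transcript length and scaled to library size) was reached by 33 of them.

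The libraries were total RNA of whole limb from B6NCrl mouse embryos at 15.5 days, with no treatment or mutation in the labels. Replicate 1 was a pool of 78 embryos and replicate 2 a pool of 62 embryos, each of mixed sex, and both pools carry the same donor identifier. The series holds 1 group, so nothing could be tested between conditions: values are given for both libraries, with the mean and SD (n = 2) of these pools, and no p-value. Neither the level at which the limb was cut nor the share of forelimb and hindlimb is in the labels.

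In a limb, the epidermal laminin that contains Lama3 and Lamb3 and the integrin pair alpha6 beta4 anchor the basal layer of the epidermis. Laminins with the alpha4 or alpha5 chain lie under endothelium, and laminin-211 surrounds muscle fibres, where it is bound by integrin alpha7 beta1. The beta1 subunit pairs with most alpha subunits, whereas the alphaV subunit pairs with several beta subunits and reads the Arg-Gly-Asp motif of fibronectin, vitronectin and related proteins. Integrins of the beta2 family occur on leukocytes, and alphaIIb beta3 occurs on platelets and their precursors.

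Expected counts (estimated read counts, which need not be whole where reads match several places) summed to 35104685 in replicate 1 and 41757268 in replicate 2. Marker lists were read beside the tissue label. They hold no list for another tissue, so they cannot test the label. All 10 listed genes of limb mesenchyme had at least 10 TPM in both libraries, led by Col1a1 and Col3a1, and so did all 10 of cartilage, led by Col2a1 and Col9a3, and all 10 of epidermis, led by Krtdap and Krt14. No listed marker of any cell type was at 0 in a library, although some rested on few counts, such as Cd3e with 1 in replicate 1. The muscle list stood apart between the pools, with a summed level of 4750 and 1370 TPM in replicates 1 and 2. In bulk tissue, fewer cells of a type and less RNA per cell cannot be told apart, which applies to every level below.

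Several of the genes make more than 1 end of the protein, and the sequences below show where they part. Integrin alpha6 and alpha3 each have an A and a B form of the tail inside the cell, set by the inclusion or skipping of 1 exon. Capitals mark the 15 bases of the conserved motif beside the membrane (glycine, a pair of phenylalanines, lysine and arginine), by which alpha subunits hold the beta subunit. Sequences are from GENCODE M21 transcripts on GRCm38, with the stretch of coding sequence of the last coding exon given 5′ to 3′. The A end of Itga6 is from ENSMUST00000028522.5 (chr2:71853534-71853638, plus strand) and its B end from ENSMUST00000112101.3 (chr2:71855854-71856012, plus strand). The A end of Itga3 is from ENSMUST00000001548.9 (chr11:95046483-95046590, minus strand) and its B end from ENSMUST00000120375.3 (chr11:95045611-95045763, minus strand).
Itga6 A end: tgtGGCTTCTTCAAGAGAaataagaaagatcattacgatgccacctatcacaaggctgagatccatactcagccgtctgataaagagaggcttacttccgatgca
Itga6 B end: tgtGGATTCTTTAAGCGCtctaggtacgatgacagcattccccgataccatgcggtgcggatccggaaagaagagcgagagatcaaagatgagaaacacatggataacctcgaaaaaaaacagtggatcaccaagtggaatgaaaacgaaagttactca
Itga3 A end: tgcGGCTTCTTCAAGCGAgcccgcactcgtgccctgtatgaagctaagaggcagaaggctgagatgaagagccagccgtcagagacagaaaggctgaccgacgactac
Itga3 B end: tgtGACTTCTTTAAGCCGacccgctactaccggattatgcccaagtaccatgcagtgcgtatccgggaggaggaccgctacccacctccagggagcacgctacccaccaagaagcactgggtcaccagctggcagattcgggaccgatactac

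Both A ends and the alpha6 B end encode the motif in full, and the alpha3 B end as annotated differs from it at 2 residues. Compared with the A end of Itga6 over the 15 bases, its B end differed at 4 bases, the A end of Itga3 at 1 base and the B end of Itga3 at 5 bases. In the most abundant complete coding transcript of each gene, the exact motif was found in 14 of the 18 integrin alpha subunits.

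The next stretch matters because of how much of the Itgav level rests on it. The short Itgav transcript ENSMUST00000131192.1 is annotated as 463 nt long, made of 3 exons with an incomplete coding sequence. Its middle exon is chr2:83802921-83803002 and the coding part of its last exon is chr2:83803240-83803332, both on the plus strand. The capitals mark the same motif, which differs from that of the Itga6 A end at 4 bases.
Itgav short transcript, middle exon: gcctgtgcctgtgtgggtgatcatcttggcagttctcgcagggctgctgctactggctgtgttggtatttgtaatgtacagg
Itgav short transcript, coding part of the last exon: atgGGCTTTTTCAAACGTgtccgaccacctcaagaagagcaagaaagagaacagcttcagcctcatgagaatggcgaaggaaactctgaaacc

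The 10 laminin chain genes summed to 293.98 and 285.4 TPM in replicates 1 and 2, and the integrin subunit genes to 534.64 and 532.34 TPM. A level of at least 10 TPM in both libraries was found for 13 of the 36 genes. At least 1 TPM in both was found for 31 of the 36, beside 15007 of all 43346 genes, coding or not. The remaining 5 of the 36 were Lama1 and Itgal, which lay on both sides of 1 TPM, and Itgae, Itgax and Itgad, which lay under it. Levels are first given for whole genes and later for complete coding transcripts alone, since the order of several members differed between those scales.

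**Figure D1:**
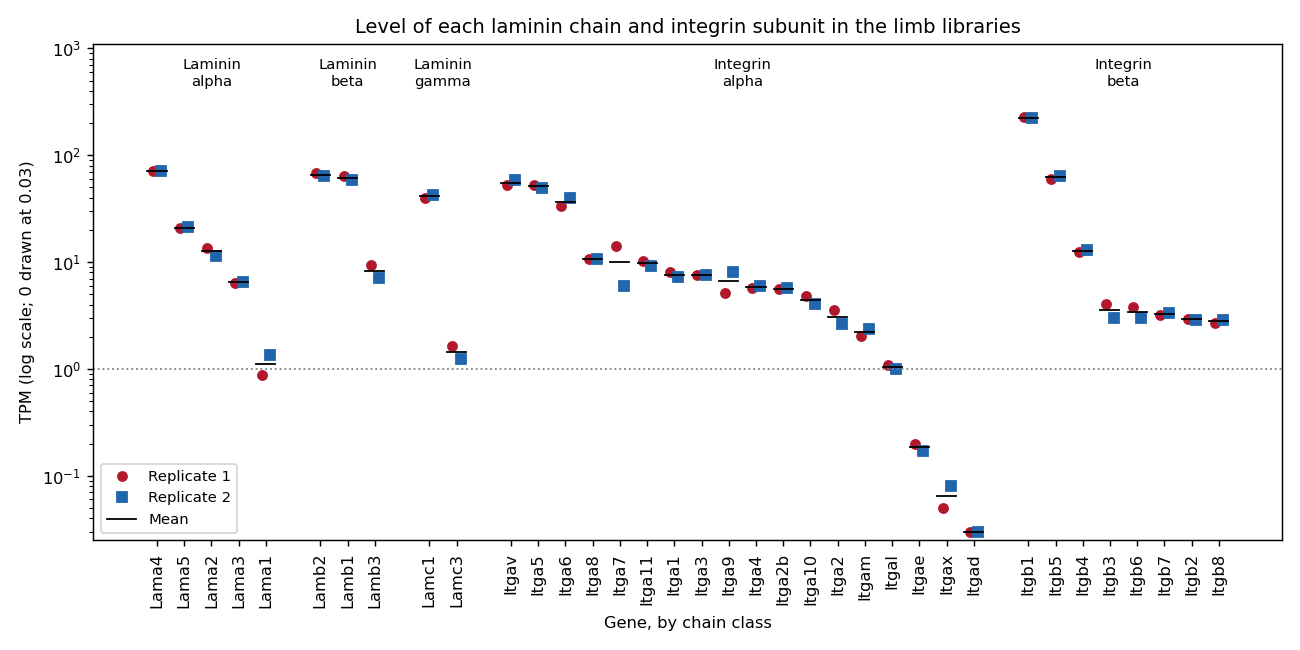
TPM of each of the 36 laminin chain and integrin subunit genes (log scale) in replicate 1 (circles) and replicate 2 (squares), with the mean of both libraries as a bar, by chain class. Itgb1 stood highest with 227.23 and 221.77 TPM, and Itgad, drawn at 0.03, had no counts.

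Lama4, the alpha chain of vessel and mesenchymal laminins, was the leading laminin alpha chain (ENSMUSG00000019846.7, chromosome 10). It had 70.76 and 70.55 TPM in replicates 1 and 2, which was 63.2% ± 0.263 of the alpha chain total (SD, n = 2). Lama5, the alpha chain of most epithelial and of mature vascular basement membranes, followed with 20.71 and 21.41 TPM. Lama2, the alpha chain of muscle and peripheral nerve laminins, had 13.68 and 11.51 TPM. The libraries of these chains did not overlap with those of the next in order, so the ranking Lama4, Lama5, Lama2 was the same in each pool.

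Lama3, an alpha chain of skin laminins, had 6.34 and 6.56 TPM in replicates 1 and 2. Most of its level lay on the short form: that transcript held 5.98 and 6.14 TPM on 727.45 and 913.36 counts, and the long form held 0.36 and 0.42 TPM on 84.08 and 118.62 counts. Lama1, the alpha chain of the earliest embryonic basement membranes, was the lowest with 0.87 and 1.34 TPM on 182 and 345 counts. On the log2 scale of TPM + 0.1, Lama5 lay below Lama4 by 3.34-fold (log2 -1.74 ± 0.04), Lama2 below Lama4 by 5.59-fold (log2 -2.48 ± 0.17) and Lama1 below Lama5 by 17.9-fold (log2 -4.16 ± 0.37).

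These balances between genes were read against a yardstick taken from genes of like level (1 of 20 bins of mean TPM). It is the size of difference between the libraries, on the log2 scale, that 95% of such genes did not pass. It does not cover errors of length or transcript assignment that both libraries share. A balance beyond it is therefore not a test that the genes differ. The larger yardstick of the genes in a pair was used. It was set from whole-gene TPM and kept unchanged on the other scales, where it need not be of like level. It was 0.48 for Lama5 over Lama4, 0.56 for Lama2 over Lama4 and 2.36 for Lama1 over Lama5, and each of these balances lay beyond it in both libraries. On complete coding transcripts alone, described further on, Lama1 was 4.56-fold below Lama5 and no longer beyond the yardstick in both. Of 23 balances computed between members, 13 were beyond their yardstick in both libraries and 10 were not.

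The beta chains Lamb2 and Lamb1, which most laminins contain, were at nearly even levels. Lamb2 had 67.56 and 64.53 TPM in replicates 1 and 2, and Lamb1 had 63.26 and 58.38 TPM. Their balance was 1.09-fold (log2 0.12 ± 0.04), within the yardstick of 0.34. Lamb3, the beta chain that pairs with Lama3 in epidermis, had 9.36 and 7.10 TPM and held 6.07% ± 0.860 of the beta chain total.

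Lamc1, the gamma chain of most laminins, had 39.80 and 42.79 TPM in replicates 1 and 2. Lamc3, the other gamma chain described here, had 1.64 and 1.23 TPM on 203.89 and 193.95 counts, 27.2-fold below Lamc1 (log2 -4.77 ± 0.35, yardstick 1.62). Lamc1 was above Lamc3 in both pools with no overlap.

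Chains were then set side by side in 13 known laminin trimers. The alpha chain was the lowest of its trimer in both libraries in 8 of the 13. These are the trimers of Lama5, Lama2, Lama3 and Lama1, each set with Lamb1 and again with Lamb2. The count thus restates the order of these gene levels and is not made of separate observations. The exceptions were laminin-411 and laminin-421, in which Lamc1 was lowest (39.80 and 42.79 TPM in replicates 1 and 2), and the trimers with Lamc3, in which Lamc3 was lowest. In laminin-411 the highest chain exceeded the lowest 1.78-fold in replicate 1 and 1.65-fold in replicate 2.

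The balance of the epidermal chains Lama3 and Lamb3 (log2 of Lama3 over Lamb3 -0.33 ± 0.31) was within its yardstick of 0.99. It turned direction on the scale of counts without division by length (log2 0.22). In the muscle trimer laminin-211, Lama2 was 4.62-fold below Lamb1 in replicate 1 and 5.07-fold below it in replicate 2. In laminin-111, the trimer of early embryos, Lama1 was the lowest chain, 72.7-fold below Lamb1 in replicate 1 and 43.6-fold below it in replicate 2. A level of messenger RNA says nothing of the trimers assembled, and a chain shared by many trimers cannot be divided among them here.

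**Figure D2:**
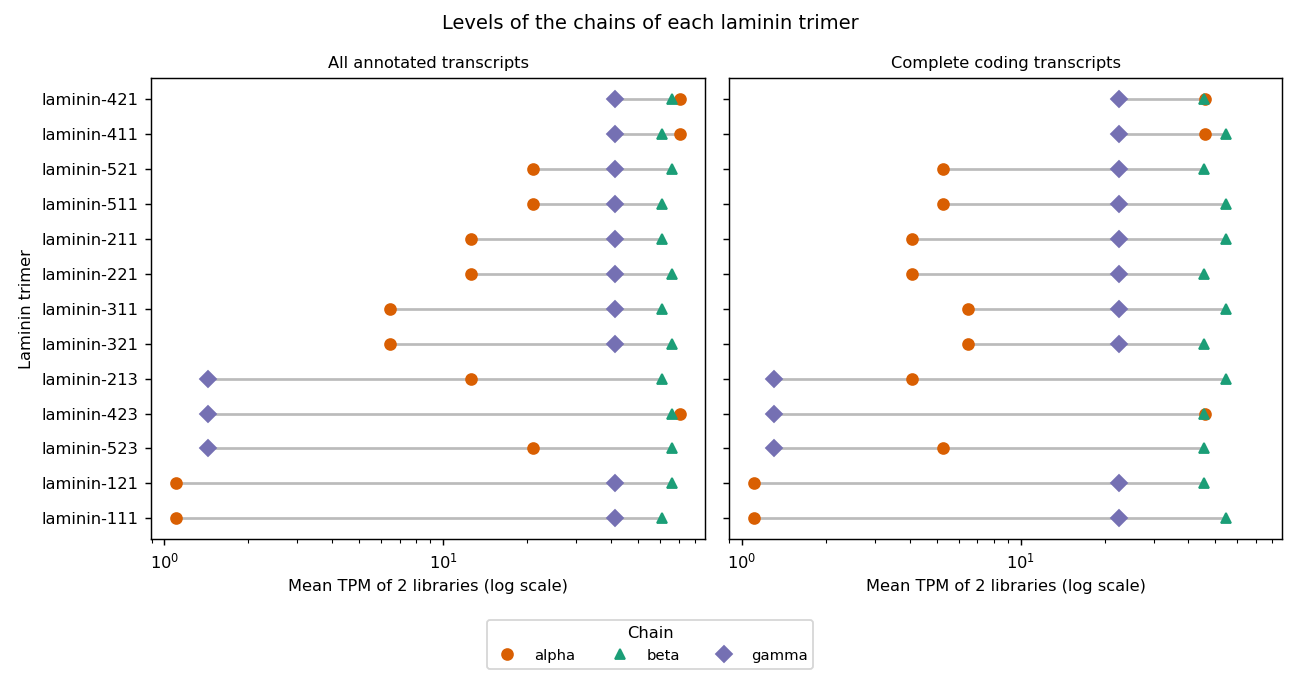
Mean TPM of 2 libraries (log scale) of the alpha, beta and gamma chain in each of 13 laminin trimers, for whole genes (left) and for complete coding transcripts alone (right), with a line from the lowest to the highest chain. Laminin-411 and laminin-421 have the shortest lines on the left, and the alpha chain is at the low end in 8 of 13 trimers on each side.

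Itgb1, the beta subunit shared by 12 of the alpha subunits, was the highest of all 36 genes (ENSMUSG00000025809.11, chromosome 8). It had 227.23 and 221.77 TPM in replicates 1 and 2, which was 71.2% ± 0.859 of the beta subunit total. Its level was close to the sum of its 12 alpha partners, which came to 209.05 and 208.72 TPM in replicates 1 and 2. The ratio was 1.09 in replicate 1 and 1.06 in replicate 2.

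Itgb5, a partner of alphaV, was the next beta subunit with 60.17 and 64.48 TPM in replicates 1 and 2. Itgb4, the hemidesmosome subunit with a long tail that binds the keratin network, had 12.47 and 12.91 TPM, 17.6-fold below Itgb1 (log2 -4.13 ± 0.06, yardstick 0.49). The order Itgb1, Itgb5, Itgb4 was the same in both pools with wide gaps.

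The other 5 beta subunits lay between 2.72 and 4.05 TPM. Itgb3, the partner of alphaV and alphaIIb in osteoclasts, endothelium and platelets, had 4.05 and 3.02 TPM in replicates 1 and 2, 17.3-fold below Itgb5 (log2 -4.12 ± 0.36, yardstick 1.09). Itgb6 and Itgb8, with which alphaV activates latent TGF-beta, had 3.79 and 3.03 TPM and 2.72 and 2.88 TPM, and their balance was within its yardstick (log2 0.27 ± 0.28, yardstick 1.91).

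Itgb7, a partner of alpha4 and alphaE, had 3.20 and 3.36 TPM in replicates 1 and 2. The leukocyte subunit Itgb2 had 2.96 and 2.85 TPM, and Itgb1 exceeded it 74.7-fold (log2 6.22 ± 0.01, yardstick 1.91). Within this low group Itgb3, Itgb6 and Itgb7 had overlapping libraries, as had Itgb2 and Itgb8.

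Of the alpha subunits that bind laminin, Itga6 led (ENSMUSG00000027111.11, chromosome 2), which pairs with beta4 in epidermis and with beta1 elsewhere. It had 33.17 and 39.59 TPM in replicates 1 and 2. Itga3, a second laminin receptor of basal epidermis, had 7.50 and 7.61 TPM, 4.75-fold below Itga6 (log2 of Itga6 over Itga3 2.25 ± 0.17, yardstick 0.67). Itga7, the laminin receptor of muscle, had 14.03 and 6.0 TPM in replicates 1 and 2, so that it stood above Itga3 in replicate 1 and below it in replicate 2. Together these 3 genes had 54.7 and 53.2 TPM.

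The A and B ends printed above differed in how counts were assigned to them. For Itga3, transcripts with the A exon held 783.32 counts in replicate 1 and 947.25 counts in replicate 2, and the transcript with the B end was listed at 0 counts in both. For Itga6, transcripts with the A exon held 1607.85 and 2259.11 counts, and the coding transcript with the B end was listed at 0. The B end of Itga6 cannot be called undetected, however. ENSMUST00000126787.1, annotated as noncoding with 3 exons, skips the A exon by the same junction as that coding transcript, and it held 792.36 and 1088.32 counts (13.55 and 15.22 TPM). It also extends 1658 bases beyond the end of the A transcript, so counts on that stretch carry no information on which end was used.

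The alpha subunits that bind collagen, Itga1, Itga2, Itga10 and Itga11, summed to 26.74 and 23.13 TPM in replicates 1 and 2. Itga11, known from mesenchymal cells and fibroblasts, had 10.35 and 9.24 TPM. Itga1, found on mesenchyme, smooth muscle and vessels, had 8.01 and 7.22 TPM. Itga10, the receptor of cartilage, had 4.85 and 4.03 TPM, and Itga2, known from epidermis and platelets, had 3.53 and 2.64 TPM. All 4 pair with beta1 alone, and all 4 were higher in replicate 1, each by less than 1.5-fold. For Itga10 the difference was 1.18-fold for the whole gene and 1.03-fold on complete coding transcripts.

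Within this class Itga1 exceeded Itga2 2.44-fold (log2 1.29 ± 0.18, yardstick 1.09). Itga11 exceeded Itga10 2.19-fold, but the log2 balance of 1.13 ± 0.07 did not clear the yardstick of 1.09 in both libraries. Itga1 and Itga2 are neighbours on chromosome 13, both on the minus strand and 21 kb apart.

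Subunits that read Arg-Gly-Asp made up the largest class of alpha subunits, with 122.36 and 123.93 TPM in replicates 1 and 2 over Itgav, Itga5, Itga8 and Itga2b. On complete coding transcripts alone the class had 75.59 and 73.35 TPM and was still the largest. Itgav (ENSMUSG00000027087.7, chromosome 2), the partner of 5 beta subunits, had 53.00 and 58.04 TPM, and Itga5, the fibronectin receptor, had 53.00 and 49.55 TPM. The libraries of these genes overlapped at the top of the alpha subunits, and Itga5 over Itgav was within its yardstick (log2 -0.11 ± 0.16, yardstick 0.37). Itga8, the nephronectin receptor of mesenchyme, had 10.75 and 10.63 TPM, 5.15-fold below Itgav (log2 -2.36 ± 0.10, yardstick 0.56). That gap was 1.23-fold on complete coding transcripts, within the yardstick.

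Itga2b, the alphaIIb subunit of megakaryocytes and platelets, had 5.61 and 5.71 TPM in replicates 1 and 2, on 208 and 213 counts. It exceeded its partner Itgb3 1.60-fold (log2 0.68 ± 0.31), within the yardstick of 1.09. Beside it, 3 of 8 listed platelet markers reached 1 TPM in both libraries, and the list summed to 93.98 and 75.53 TPM, of which Pf4 had 83.76 and 66.36 TPM and Gp1bb 4.27 and 3.58 TPM. The part of these cells in the Itga2b level was not tested.

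Itga4 and Itga9, which bind fibronectin variants, VCAM-1, tenascin and osteopontin, were at similar levels. Itga4, found on leukocytes and on migrating progenitors, had 5.75 and 6.01 TPM in replicates 1 and 2. Itga9 had 5.11 and 8.16 TPM, on 729 and 1150 counts. Their libraries overlapped and their balance was within its yardstick (log2 -0.13 ± 0.43, yardstick 0.99).

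The alpha subunits of leukocytes were the lowest class, with 3.39 and 3.61 TPM in replicates 1 and 2 over 5 genes. Itgam, known from macrophages and granulocytes, had 2.04 and 2.37 TPM, and Itgal, the LFA-1 subunit, had 1.10 and 0.99 TPM. Itgae, known from intraepithelial lymphocytes, had 0.20 and 0.17 TPM on 17 counts in each library. Itgax, known from dendritic cells, had 0.05 and 0.08 TPM on 4 and 9 counts.

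Itgad, the alphaD subunit, had 0 counts in both libraries, which allows up to 3 counts, or 0.0855 CPM (the count relative to all counts of the library) in replicate 1 and 0.0718 CPM in replicate 2. Itgam, Itgax and Itgad lie in this order on chromosome 7, with 11.1 kb between Itgam and Itgax and 3.7 kb between Itgax and Itgad. The listed leukocyte markers summed to 586.48 and 556.41 TPM in replicates 1 and 2, led by Cpa3 of mast cells and Lyz2 of macrophages, with 7 of 10 at 1 TPM or more in both. The T cell marker Cd3e, named after its values were seen, had 0.03 and 0.11 TPM.

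Subunits were then paired into 24 known heterodimers. The beta subunit was higher than the alpha subunit in both libraries in 18 of them, and the alpha subunit in 6. The pairs share subunits, so these numbers restate gene levels and are not made of separate observations. The 18 include Itgad, which had 0 counts. On complete coding transcripts the numbers were 19 and 4, and in Itga4 with Itgb7 the libraries went opposite ways. All 12 pairs with Itgb1 were of the first kind, and Itgb1 exceeded Itgav 4.04-fold, Itga5 4.37-fold, Itga6 6.18-fold and Itga7 24.2-fold by the mean log2 balance. The 6 pairs with more alpha subunit were Itgav with Itgb3, Itgb6 and Itgb8, Itga6 with Itgb4, Itga2b with Itgb3, and Itga4 with Itgb7. Itgav exceeded Itgb3 15.4-fold, Itgb6 15.9-fold and Itgb8 19.2-fold, which on complete coding transcripts became 3.32-fold, 3.78-fold and 8.69-fold. For whole genes it was close to Itgb5 (log2 of Itgb5 over Itgav 0.17 ± 0.02, yardstick 0.34).

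In the hemidesmosome pair, Itga6 exceeded Itgb4 2.84-fold (log2 of Itgb4 over Itga6 -1.51 ± 0.14, yardstick 0.48). On complete coding transcripts the difference was 1.40-fold and no longer beyond the yardstick in both libraries. That scale leaves out the Itga6 transcript annotated as noncoding that skips the A exon. This transcript held 13.55 and 15.22 TPM in replicates 1 and 2, so the Itga6 value may be too low there. Since Itga6 also pairs with Itgb1, the part of Itga6 that joins Itgb4 cannot be read from these levels. Among leukocyte pairs, Itgb2 exceeded Itgal 2.63-fold and Itgam 1.31-fold, and Itgb7 exceeded Itgae 11.9-fold.

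**Figure D3:**
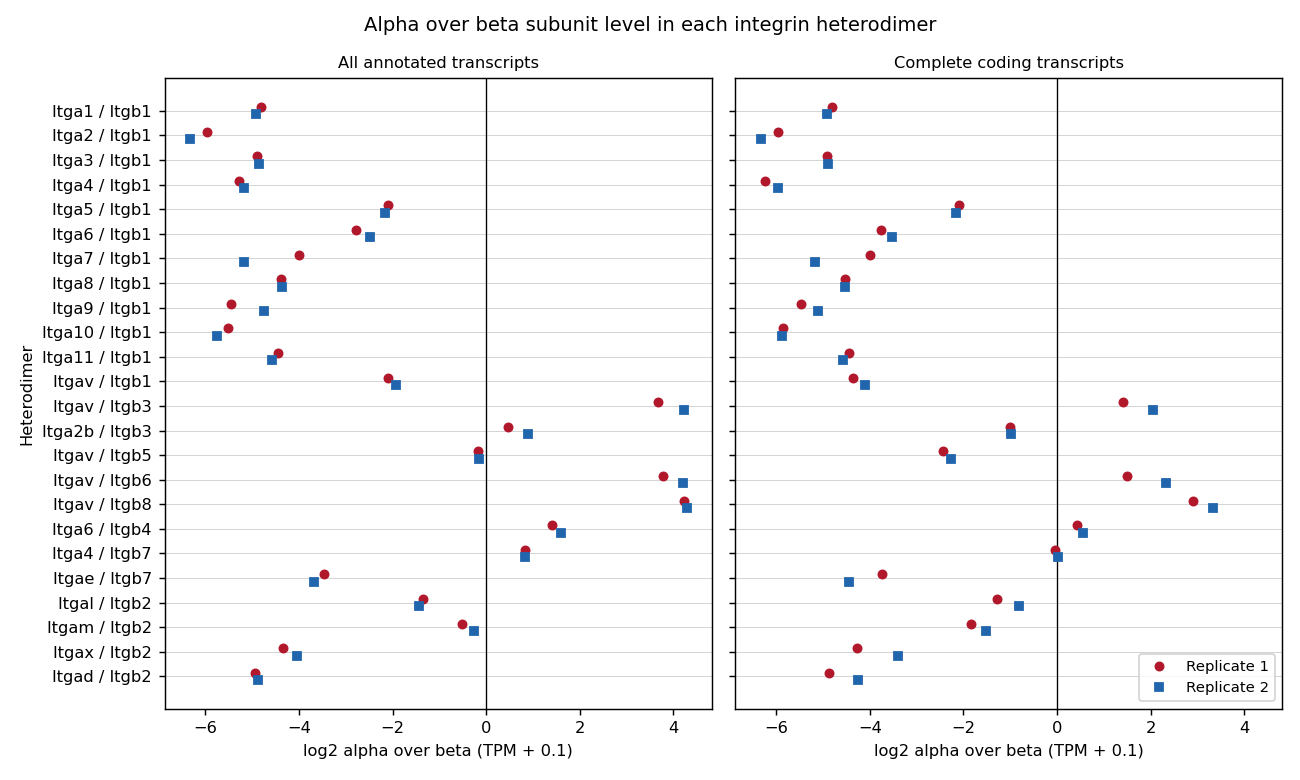
Log2 of the alpha over the beta subunit (TPM + 0.1) in each of 24 integrin heterodimers, for whole genes (left) and for complete coding transcripts alone (right), in replicate 1 (circles) and replicate 2 (squares). Points left of 0 have more beta subunit, as in 18 of 24 pairs on the left, and the pairs of Itgav sit further left when only complete coding transcripts are used.

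A gene's TPM is the sum over its annotated transcripts, and a short transcript with few reads can add a large TPM. The levels were therefore recomputed from complete coding transcripts alone, those annotated as protein-coding in GENCODE M21 with no missing start or end. This scale was chosen after the gene levels had been seen. The 36 genes had 175 transcripts in the tables, and 4 of them were not listed in M21 under any of the 36 genes. Whether M21 lists those under another gene was not looked up, and they were not counted as complete coding. Of the 33 genes with a mean of at least 1 TPM, 17 had at least 90% of their TPM on complete coding transcripts and 7 had under 50%.

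Itgav was the most affected. Its short transcript, printed above, held 37.76 and 41.77 TPM in replicates 1 and 2 on 306.67 and 414.56 counts. Its complete coding transcripts held 10.91 and 12.83 TPM together, although they had more counts. One of 6788 nt had 1001.74 and 1190.46 counts, and one of 7054 nt had 651.56 and 1195.18 counts. Complete coding transcripts thus had 21.3% of the Itgav TPM but 80.9% of its counts.

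The other 6 under 50% were Lama5, Itgam, Itga2b, Lama2, Itgb8 and Itga6. Lama5 had 5.23 and 5.34 TPM in replicates 1 and 2 on its complete transcript of 11388 nt, which was 25.1% of its TPM and 89.6% of its counts. The rest of the Lama5 level lay on noncoding transcripts of 451 to 734 nt. Lama2 had 4.59 and 3.54 TPM on complete transcripts, 32.2% of its TPM and 78.2% of its counts, and a retained intron of 643 nt had 4.60 and 5.0 TPM. Counted by reads in place of TPM, 1 gene was under 50%, Itgam with 35.5%. Its leading transcript is among those not listed in M21 under these genes, so the Itgam share may be too low.

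The order within classes depended on this choice. Among laminin alpha chains, Lama4 led on both scales, with 46.96 and 44.45 TPM in replicates 1 and 2 on complete transcripts, and its share was 73.0% ± 0.560. Lama3 was then the second alpha chain with 10.3% ± 0.570, above Lama5 with 8.45% ± 0.388 and Lama2 with 6.48% ± 0.984. Lamb1 was above Lamb2, with 55.94 and 53.44 TPM against 47.31 and 43.74 TPM. Lamc1 had 20.85 and 24.42 TPM on complete transcripts, and a 1447 nt transcript with incomplete coding sequence held 18.62 and 17.82 TPM.

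Among integrin alpha subunits, Itga5 alone led on complete transcripts with 35.5% ± 0.0363 of the total, and its 1 annotated transcript is complete. Itga6 followed with 12.4% ± 1.68, without its transcript annotated as noncoding that skips the A exon. Itgav had 8.24% ± 1.32 and came next by the mean only: Itga7 was above it in replicate 1 (9.39% for Itga7 and 7.30% for Itgav). Itgb1 kept 72.0% ± 0.427 of the beta subunit total. Its level was 1.56 times the sum of its alpha partners in replicate 1 and 1.62 times in replicate 2, compared with 1.09 and 1.06 for whole genes.

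Of the 23 balances, 4 turned direction on complete transcripts, and none of the 4 had been beyond its yardstick for whole genes. Lamb1 exceeded Lamb2 1.20-fold. Itga5 exceeded Itgav 4.30-fold, Itgb3 exceeded Itga2b 1.99-fold and Itgal exceeded Itgam 1.54-fold. The value for Itgam leaves out its leading transcript, whose coding type was not looked up. Itgb5 exceeded Itgav 5.11-fold, compared with 1.12-fold for whole genes. Of the balances beyond their yardstick for whole genes, 4 no longer were on complete transcripts, and 3 others came to be. These calls kept the yardsticks set from whole-gene levels. Those lost were Lama1 over Lama5, Itgb4 over Itga6 and Itga8 over Itgav, given above, and Itga7 over Itga6, where Itga6 exceeded Itga7 1.93-fold, compared with 3.91-fold for whole genes. Those gained were Itga5 over Itgav, Itgb5 over Itgav and Itga11 over Itga10 (2.57-fold).

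In 15 of the 23 the fold moved by more than 1.5 times. Lama5 was 8.50-fold and Lama2 11.1-fold below Lama4 on this scale, and Lamc3 was 16.2-fold below Lamc1. Itga6 exceeded Itga3 2.40-fold, Itga9 exceeded Itga4 1.76-fold and Itgb6 exceeded Itgb8 2.30-fold. Among pairs with Itgb1, Itgb1 exceeded Itgav 18.8-fold and Itga6 12.5-fold. Every Itga6 value on this scale, here and above, leaves out its transcript annotated as noncoding that skips the A exon. The Itga6 level may thus be too low in these comparisons. In the trimers, the alpha chain was lowest in 8 of 13 on this scale too, and Lamc1 was lowest in laminin-411 with 20.85 and 24.42 TPM in replicates 1 and 2. The highest chain of laminin-411 was Lamb1 on this scale and Lama4 for whole genes.

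**Figure D4:**
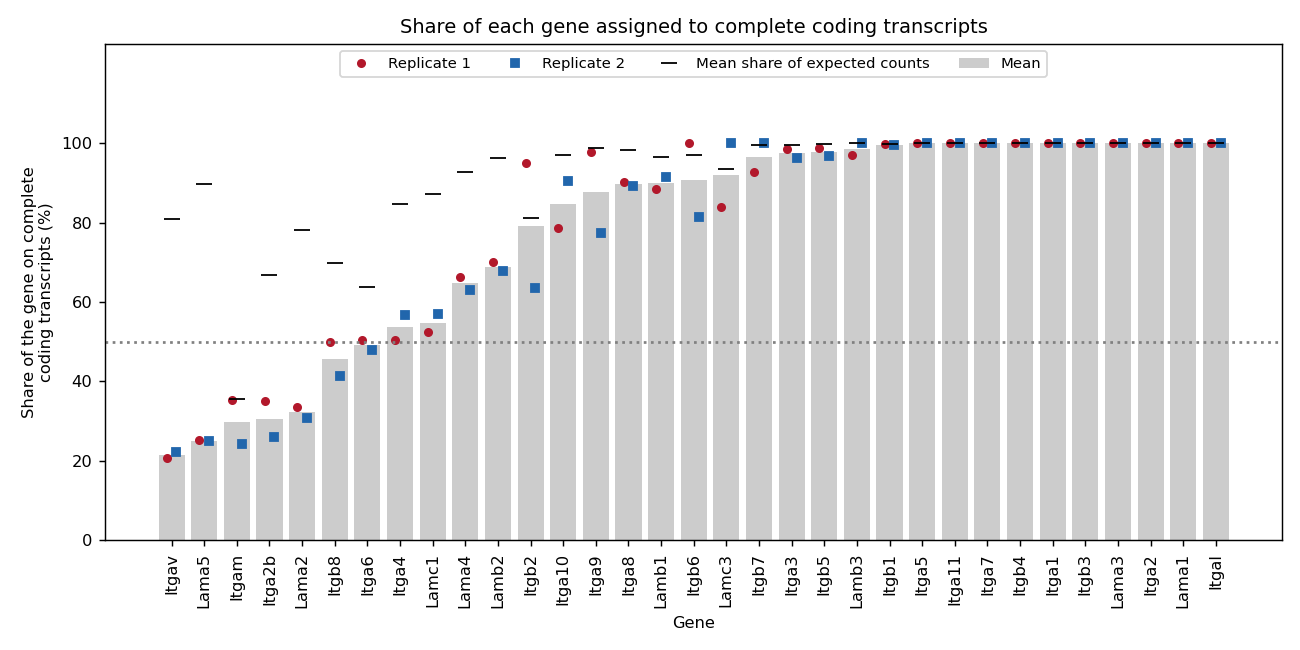
Share of each gene's TPM on complete coding transcripts (percent) for the 33 genes with a mean of at least 1 TPM, in replicate 1 (circles) and replicate 2 (squares), with the mean as a bar that starts at 0. Dashes give the mean share of expected counts, which is above the TPM share for Itgav (80.9% of counts, 21.3% of TPM) and Lama5 (89.6% and 25.1%).

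The pools differed little over these genes. The difference is log2 of replicate 1 over replicate 2 of TPM + 0.1, less the median of all genes with a mean of at least 1 TPM, a shift of 0.02. Over the 33 genes that passed, the median absolute difference was 0.12, beside 0.13 over all 15571 genes tested, with 16 genes higher in replicate 1 and 17 higher in replicate 2. More than 1.5-fold apart were 3 of the 33 (9.09%), beside 8.00% of all genes tested. By direction, 1 was higher in replicate 1 (4.87% of all genes were) and 2 were higher in replicate 2 (3.12% of all genes were).

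Itga7 was the gene higher in replicate 1, with 14.03 and 6.0 TPM in replicates 1 and 2 on 1225 and 640 counts, or 2.28-fold (log2 1.19). Its deposited intervals, which cover counting and read assignment, did not overlap. Its 1 annotated transcript is complete, so the scales above give the same values. The opposite-strand gene Mettl7b, with which it shares exon sequence, had 0.20 and 0.26 TPM.

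Muscle markers moved in the same direction as Itga7. All 10 were more than 1.5-fold higher in replicate 1 (median 2.70-fold), among them Acta1 (3.61-fold), Ckm (5.91-fold), Tnnt3 (3.41-fold), Des (3.07-fold), Myh8 (2.90-fold), Myh3 (2.51-fold), Chrna1 (2.25-fold) and Mymk (2.19-fold). Itgb1bp2, or melusin, a beta1-binding protein of striated muscle, had 97.45 and 30.55 TPM in replicates 1 and 2 (3.13-fold). Lama2, the laminin alpha chain around muscle fibres, differed 1.17-fold for the whole gene and 1.27-fold on complete coding transcripts. Itgb1 differed 1.01-fold, and all of these were under the line of 1.5-fold. Markers of mural cells and smooth muscle leaned the same way: all 8 were higher in replicate 1 (median 1.33-fold), with a summed level of 599.56 and 352.81 TPM in replicates 1 and 2. Acta2, smooth muscle actin, led this list with 301.38 and 198.62 TPM (1.49-fold), followed by Des, which is on the muscle list too and was the 1 gene of the 8 past 1.5-fold. Pdgfrb and Cspg4 of the same list, named after their values were seen, differed 1.03-fold and 1.10-fold. Such a lean was not particular to mural markers, since 9 of 10 endothelial markers were higher in replicate 1 too. In the epidermis, cartilage and limb mesenchyme lists 4, 2 and 4 of 10 were. Markers of Schwann cells and nerve summed to 52.72 and 49.13 TPM, led by Erbb3 with 17.56 and 16.75 TPM and Stmn2 with 9.86 and 9.81 TPM. Past 1.5-fold were 0 of the 7 that passed the filter, beside 8.00% of all genes tested. The part of muscle or mural content in the Itga7 difference was not tested.

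Lama1 and Itga9 were higher in replicate 2. Lama1 had 0.87 and 1.34 TPM in replicates 1 and 2 (log2 -0.59), with intervals apart, and it lay just past 1.5-fold (log2 of 0.58 is the line). Itga9 had 5.11 and 8.16 TPM (log2 -0.69), with overlapping intervals. Complete coding transcripts gave Itga9 5.0 and 6.32 TPM (log2 -0.36), under 1.5-fold. The rest of its gap lay mostly on a 603 nt noncoding transcript with 0 and 1.49 TPM in replicates 1 and 2, on 0 and 20.41 counts.

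Intervals were also apart for Itga6, Itga5, Itgb3 and Itga2, whose differences were under 1.5-fold. In all, intervals were apart for 6 of the 33 genes (18.2%), beside 23.2% of all genes tested. Itga6 was 1.21-fold higher in replicate 2, and Itgb3 and Itga2 were 1.31-fold and 1.30-fold higher in replicate 1. Epidermal markers, beside which Itga6, Itgb4, Lama3 and Lamb3 can be read, summed to 7307.65 and 7405.26 TPM in replicates 1 and 2. More than 1.5-fold apart were 0 of these 10, beside 8.00% of all genes tested. Endothelial markers summed to 368.44 and 318.05 TPM, led by Egfl7 and Esam, with 0 of 10 past that line, beside the same share.

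**Figure D5:**
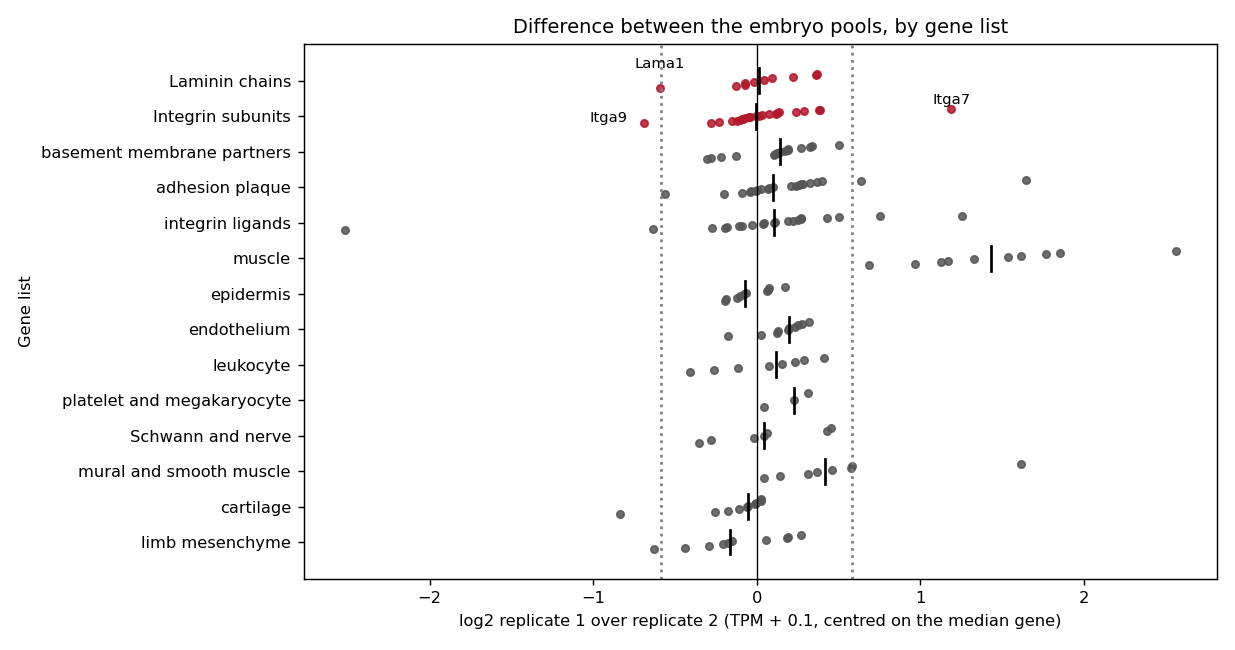
Difference between the libraries, as log2 of replicate 1 over 2 after centring on the median gene (TPM + 0.1), for each laminin chain and integrin subunit (red) and each gene of 12 lists (grey) with a mean of at least 1 TPM, with the median of each list as a bar and dotted lines at 1.5-fold. Itga7 lies at 1.19, Itga9 at -0.69 and Lama1 at -0.59, and all 10 muscle genes lie right of the upper line.

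Of 16 listed partners of laminin in the basement membrane, 15 had at least 1 TPM in both libraries and 11 had at least 10 TPM. More than 1.5-fold apart were 0 of the 15 that passed the filter, beside 8.00% of all genes tested. Col4a1, the main type IV collagen chain, had 144.08 and 124.27 TPM in replicates 1 and 2, and Bcam, a laminin alpha5 receptor of the immunoglobulin family, had 126.81 and 98.80 TPM. The median over the list was 1.11-fold higher in replicate 1, with 11 of the 15 in that direction. The other listed gene, Ntn4, a netrin that binds laminin, had 0.37 and 0.94 TPM on 29 and 79 counts and was named after its values were seen.

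Proteins of the adhesion plaque, which join integrin tails to actin or keratin, were all detected: 21 of 21 listed genes had at least 1 TPM in both libraries. Ilk, the integrin-linked kinase, had 385.58 and 287.36 TPM in replicates 1 and 2, and Lims1, its partner PINCH1, had 118.31 and 97.26 TPM. More than 1.5-fold apart were 2 of the 21, beside 8.00% of all genes tested, and both were higher in replicate 1. They were Itgb1bp2, described above, and Parvb, beta-parvin, with 4.24 and 2.64 TPM, named after its values were seen.

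Of 21 listed ligands of integrins, 20 had at least 1 TPM in both libraries, and the highest were the collagens Col1a1 with 4931.28 and 4016.57 TPM and Col2a1 with 688.61 and 731.30 TPM. Past 1.5-fold were 2 of the 21 in each direction, beside 4.87% of all genes tested toward replicate 1 and 3.12% toward replicate 2. Spp1, osteopontin, was 2.39-fold and Ibsp, bone sialoprotein, 1.69-fold higher in replicate 1. Vtn, vitronectin, was 1.55-fold and Fga, a fibrinogen chain, 5.72-fold higher in replicate 2, the last on 14 and 115 counts. Ibsp, Vtn and Fga were named after their values were seen. Itgav and Itgb3, subunits of the receptor that binds these ligands, differed 1.11-fold toward replicate 2 and 1.31-fold toward replicate 1.

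The 36 genes lie on 14 chromosomes, with 7 on chromosome 2 and 5 on chromosome 11, and 3 pairs of neighbours are under 200 kb apart. Counts were whole numbers for 27 genes and not whole for 9 in at least 1 library, which happens where reads were shared with other genes. Exons of 4 genes overlap another annotated gene on the same strand and exons of 9 overlap one on the opposite strand. Use of strand in counting is not given in the sources used here, so reads of such pairs cannot be told apart. For the opposite-strand partners with a row in the tables, those of members above 1 TPM had at most 1.71 TPM, the value of Cerkl beside Itga4 in replicate 2.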

How the data were processed

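Total RNA of whole limb was measured in 2 libraries of 1 group, each a pool of embryos. Per the labels' protocols RNA over 200 nt was extracted with Ambion mirVana, 10 ng entered each library and spike-ins were added. A SMARTer Ultra Low kit manual is among the named documents. The assembly was mm10 per the labels and the annotation GENCODE M4 per the sample records. The aligner and the counter were not given in the sources used here. The authors deposited, per gene and transcript, expected counts, TPM, posterior mean TPM and FPKM, per the file headers, and a percent column with the share of each transcript in its gene. The deposited intervals of TPM cover counting and read assignment and belong to the posterior mean. Amplification from little RNA adds error that depth does not remove, and limits from counts cover counting error only.

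Symbols, coordinates and transcript types are those of GENCODE M21 (GRCm38, which is mm10), matched by identifiers without version for 42462 of 43346 genes. Levels are deposited TPM, and a pseudocount of 0.1 was added on the log2 scale. More than 1.5-fold was used to describe a difference between the pools, for genes with a mean of at least 1 TPM. Alternatives used expected counts rounded to whole numbers, with TMM factors from edgeR 4.0.16 or size factors from DESeq2 1.42.0 in R 4.3.3 (17538 genes with at least 10 counts in each library). Other steps used Python 3.11.15, numpy 2.4.6 and pandas 2.3.3. The calculation of differences was run on simulated data with planted changes larger than 1.5-fold and no assignment to transcripts. That run checks the calculation only and lends no weight to the results above. 1 gene that meets the rule is not reported here, and every other member is named. From each of 12 lists, the 2 genes of highest mean TPM are named, with those over 2-fold apart at a mean of at least 10 TPM, and any other gene is said to be named after its values were seen. Members, lists and alternatives were chosen with earlier results of these data known. The choice of pairs, trimers and heterodimers follows textbook knowledge. Rows of numeric identifiers and the library notes were not used here.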

Additional observations from a re-analysis of the deposited data

How the results depend on the processing

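Only 2 pools were available, so every SD rests on 2 values, and both pools share a donor identifier. The number of genes more than 1.5-fold apart was 3, 2 when not centred, with TMM scaling, with DESeq2 size factors, with posterior mean TPM or with a pseudocount of 1, 3 without the filter or on complete coding transcripts, and 1 at 2-fold, which leaves Itga7. Itga7 stayed over 1.5-fold in all of these, with log2 differences of 1.08 to 1.21. Itga9 fell under the line with TMM (log2 -0.39), DESeq2 size factors (-0.39), posterior mean TPM (-0.51) and complete coding transcripts (-0.36), and Lama1 when not centred (-0.57) or with a pseudocount of 1 (-0.34). Itgb2 passed it on complete coding transcripts (0.59). The cause was not tested.

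Genes with at least 1 TPM in both libraries numbered 31, and 30 to 32 under the alternatives (32 to 32 without either replicate). Balances beyond the yardstick numbered 13, and 12 to 17 under the alternatives (14 to 14 without either replicate). With counts not divided by length the share of Itgav was 12.7%, of Itgb1 72.4%, of Lama4 64.2% and of Lamb2 42.4%. With posterior mean TPM that of Lama4 was 62.8%. On complete coding transcripts, chosen after seeing the data, the shares were 8.24% for Itgav, 73.0% for Lama4 and 42.0% for Lamb2. Leaving out either replicate gave 24.3% to 26.6% for Itgav, 70.6% to 71.8% for Itgb1, 63.0% to 63.3% for Lama4 and 48.2% to 49.6% for Lamb2. Genes under 50% on complete coding transcripts numbered 7, 7 with posterior mean TPM, 5 to 7 with a replicate left out and 1 by expected counts. Of the 23 balances, the fold moved by more than 1.5 times in 15 on complete coding transcripts, 7 with counts not divided by length, 2 with a pseudocount of 1 and 0 with posterior mean TPM. Calls beyond the yardstick were lost in 4 on complete coding transcripts and in 1 with a pseudocount of 1 (Itga1 over Itga2, 2.12-fold). Leaving out either replicate gave 2.35-fold to 6.51-fold for Itga6 over Itga7. None beyond its yardstick for whole genes changed sign. Of the 23, 5 did with counts not divided by length, 4 on complete coding transcripts and 1 with either replicate left out. With counts not divided by length, Itga5 over Itgav (log2 1.14) and Itga2b over Itgb3 (log2 -1.21) passed the yardstick in the new direction. No paired analysis was possible because there was 1 group.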
